A study of Homo sapiens with 2 samples.

Results

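Gluconeogenesis and glycogen metabolism were followed through 8 genes chosen by name, PCK1, PCK2, PC, FBP1, GYS2, PYGL, PKLR and GCKR, out of 60448 genes in the deposited table. All 8 were found, and 6 of them reached a mean of 1 FPKM over the libraries, the minimum for the counts below. FPKM is the number of reads per kilobase of transcript, scaled by library depth. A comparison of FPKM between genes therefore depends on the transcript length taken for each. HepG2 is a human line from a liver tumour that keeps many hepatocyte traits. Both groups are HepG2 cells reverse-transfected with Lipofectamine RNAiMAX and 40 nM siRNA, the control group with a negative control siRNA and the other with an siRNA against SPRTN, the protease that clears proteins crosslinked to DNA. The transfection mix stayed on the cells for 24 h, RNA was taken at 72 h in total, and poly(A) RNA was sequenced. Each group is 1 library and 1 siRNA was used against SPRTN, so no difference below has a replicate check and no test across libraries was possible. Because these are bulk libraries, fewer cells expressing a gene and less RNA per cell cannot be told apart.

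The liver makes glucose from lactate, amino acids and glycerol by running glycolysis backwards, with separate enzymes at the steps that glycolysis makes irreversible. Pyruvate carboxylase (PC) makes oxaloacetate in mitochondria, and phosphoenolpyruvate carboxykinase turns it into phosphoenolpyruvate in the cytosol (PCK1) or in mitochondria (PCK2). Fructose-1,6-bisphosphatase (FBP1) and glucose-6-phosphatase complete the path. Liver glycogen synthase (GYS2) and liver glycogen phosphorylase (PYGL) store and release glucose. Liver pyruvate kinase (PKLR) runs the opposite, glycolytic way, and GCKR is a hepatocyte inhibitor of the phosphorylation of glucose.

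The control library held about 96400000 assigned reads and the SPRTN siRNA library about 67100000, as recovered from the FPKM values. SPRTN was 3.77-fold lower in the library labelled as silenced (7.81 and 2.07 FPKM, 95% counting interval of the fold 3.29 to 4.33). Hepatocyte identity was plain in both: 9 of 9 hepatocyte markers passed the minimum, with a summed level of 22795 FPKM in the control and 30616 FPKM with SPRTN siRNA. Summed endothelial markers were at 7.55 and 14.3 FPKM (5 of 7 passed), fibroblast or stellate markers at 22.8 and 25.5 FPKM (3 of 7), blood markers at 9.07 and 10.4 FPKM (2 of 7) and biliary markers at 477 and 556 FPKM (3 of 5). PTPRC, which marks leukocytes, and DCN and COL3A1, which mark fibroblasts, were at 0 in both libraries. Other markers of the same lists were expressed. In the control the highest were ACTA2 among fibroblast or stellate markers (12.8 FPKM) and CD4 among blood markers (5.45 FPKM). The part of these markers in the results below was not tested. The nuclear RNAs MALAT1 and NEAT1 were 2.55-fold and 2.54-fold higher with SPRTN siRNA, and their part was not tested either.

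The 8 genes spanned levels from 0 to 199.7 FPKM. PCK2 was the most abundant, at 199.7 FPKM in the control library, above 95.9% of the genes that passed the minimum. PYGL (70.6 FPKM) and PC (67.5 FPKM) followed, above 86.0% and 85.2% of those genes. GCKR (16.5 FPKM) and PKLR (14.0 FPKM) lay near the middle. PCK1 (0.895 FPKM), FBP1 (0.122 FPKM) and GYS2 (0 FPKM) were at or close to silence. The order was the same with SPRTN siRNA. Whether neighbours in it, such as PYGL and PC or GCKR and PKLR, differ beyond the spread of cultures cannot be told from 1 library a group. The order also rests on the transcript lengths. GCKR had fewer recovered control reads than PKLR (1624 and 2743), with mean annotated transcript lengths of 1021 and 2035 bases. The part of length in the order was not tested.

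**Figure D1:**
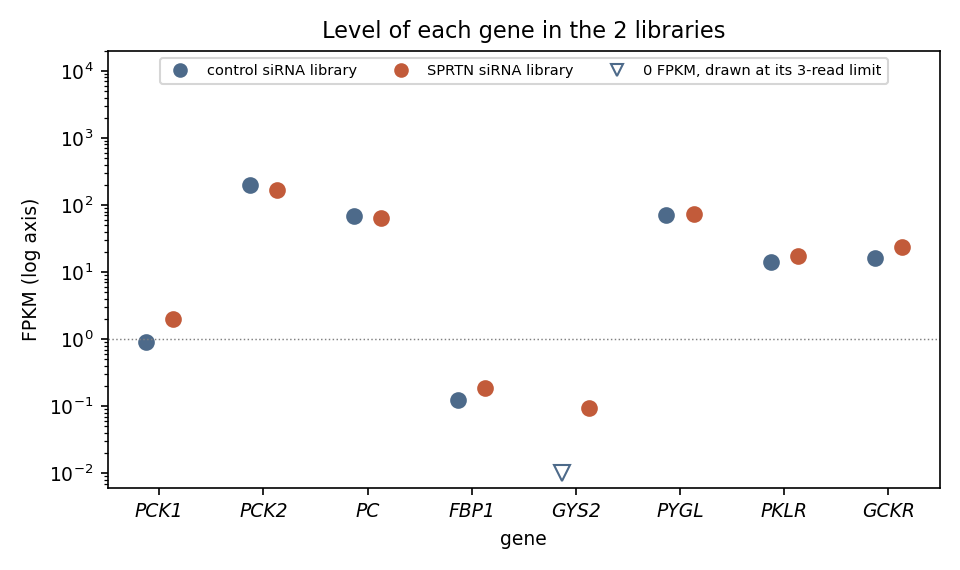
FPKM (log axis) of each gene in the control siRNA library and the SPRTN siRNA library, 1 library each. PCK2, PC and PYGL lie above 60 FPKM in both, GYS2 is at 0 in the control and drawn as an open triangle at the level of 3 reads, and the dotted line marks 1 FPKM.

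Of the 6 genes that passed the minimum, 0 differed by 2-fold or more on the log2(FPKM + 1) scale. On that scale 2.29% of 13203 genes did, 1.51% higher and 0.788% lower with SPRTN siRNA. These shares stand for 199 and 104 genes, or 222 and 73 under median-of-ratios scaling. On the plain ratio of FPKM, PCK1 was the 1 gene past 2-fold, where 3.03% of all genes were higher and 1.93% lower. The median log2(FPKM + 1) difference of the 6 genes was 0.19, with 4 above 0 and 2 below, beside a median of -0.05 and 43.4% above 0 over all genes. That median rests on few genes: without PCK1, at a minimum of 5 FPKM, it was 0.06. The counting interval excluded equality for all 6, but it did so for 75.7% of genes with recovered reads, and it covers counting error only.

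**Figure D2:**
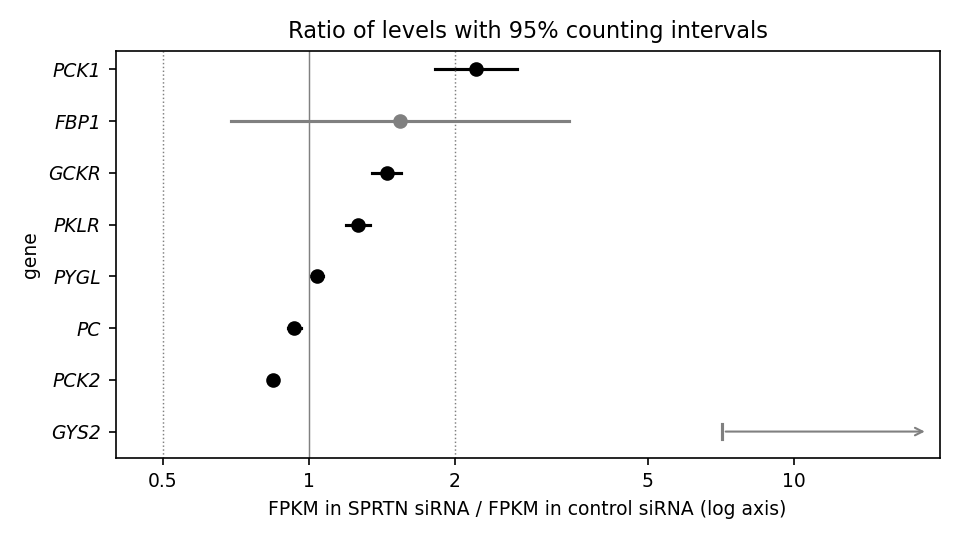
Ratio of FPKM with SPRTN siRNA to FPKM with control siRNA (log axis), with exact 95% intervals for counting error only; dotted lines mark 2-fold. PCK1 lies at 2.21, GCKR at 1.45 and PKLR at 1.26, while PYGL, PC and PCK2 lie between 0.846 and 1.04; FBP1 and GYS2, in grey, did not reach a mean of 1 FPKM, and the arrow for GYS2 starts at its lower limit of 7.10.

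The cytosolic carboxykinase gene PCK1 (ENSG00000124253, chromosome 20, 57561080 to 57568112, plus strand, GRCh38) is the classic hormone-controlled gene of gluconeogenesis. It had 0.895 FPKM with control siRNA and 1.98 FPKM with SPRTN siRNA, from 176 and 271 reads. The SPRTN siRNA library was the higher one, 2.21-fold (1.82 to 2.69). Because the level is so low, the log2(FPKM + 1) difference was 0.65, short of the 2-fold line, and it was 1.06 with a pseudocount of 0.1. Of the tested genes, 96.0% had a lower value on the log2(FPKM + 1) scale. Of the 6 annotated PCK1 transcripts, 1 is protein-coding and 5 retain introns, and their reads count towards the same FPKM.

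The mitochondrial carboxykinase gene PCK2 (ENSG00000100889, chromosome 14, 24094053 to 24110598, plus strand) went the other way. It had 199.7 FPKM with control siRNA and 168.9 FPKM with SPRTN siRNA, from 27087 and 15939 reads in libraries of unequal depth. That is 1.18-fold lower (1.16 to 1.21), and 26.8% of tested genes had a lower log2(FPKM + 1) difference. PCK2 is also known as a target of ATF4, the transcription factor of amino acid stress, and ATF4 itself, a gene taken up after its values were seen, was at 225 and 209 FPKM.

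Pyruvate carboxylase, PC (ENSG00000173599, chromosome 11, 66848233 to 66958376, minus strand), which feeds both carboxykinases, was nearly level. It had 67.5 FPKM with control siRNA and 63.0 FPKM with SPRTN siRNA, 1.07-fold lower (1.04 to 1.10). Of its 5927 exonic bases, 621 are shared with LRFN4 on the other strand, at 8.88 and 10.7 FPKM. No source states whether strand was used in counting, so reads in such shared bases cannot be assigned to one gene.

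FBP1 (ENSG00000165140, chromosome 9, 94603133 to 94640249, minus strand), whose enzyme removes a phosphate from fructose-1,6-bisphosphate, was barely detected. Its level was 0.122 FPKM with control siRNA and 0.187 FPKM with SPRTN siRNA, from 14 and 15 reads. A ratio of 1.54 with an interval from 0.693 to 3.44 means that no difference was detectable at this depth. Its antisense neighbour PCAT7, at 1.07 and 1.23 FPKM, covers 283 of the 1739 exonic bases of FBP1, so part of these few reads may belong to either gene.

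Liver glycogen synthase, GYS2 (ENSG00000111713, chromosome 12, 21536189 to 21604847, minus strand), adds glucose to glycogen in hepatocytes. It had 0 reads in the control library and 20 in the SPRTN siRNA library, or 0 and 0.0952 FPKM. Taking 3 reads as the most that a count of 0 allows, the control level was at most 0.00993 FPKM, and by that floor GYS2 was at least 9.58-fold higher with SPRTN siRNA. This bound takes the 20 reads as exact. The exact 95% counting interval of the ratio, which includes their error, starts at 7.10. Both levels are far below 1 FPKM. In the annotation, 2742 of the 3132 exonic bases of GYS2 also belong to AC010197.2 on the same strand, which is not analysed here, and 375 to SPX on the other strand, at 0.0696 and 0.156 FPKM. Which of these transcripts gave the 20 reads cannot be told apart.

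PYGL (ENSG00000100504, chromosome 14, 50857891 to 50944736, minus strand), which frees glucose-1-phosphate from glycogen, was expressed strongly and evenly. Its level was 70.6 FPKM with control siRNA and 73.5 FPKM with SPRTN siRNA, from 11446 and 8284 reads. The ratio was 1.04 (1.01 to 1.07), and 85.9% of tested genes had a larger absolute log2(FPKM + 1) difference.

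GCKR (ENSG00000084734, chromosome 2, 27496842 to 27523684, plus strand), the inhibitory regulator of glucose phosphorylation in hepatocytes, had the largest difference of the genes above 5 FPKM here. Its level was 16.5 FPKM with control siRNA and 23.9 FPKM with SPRTN siRNA, from 1624 and 1638 reads. That is 1.45-fold higher (1.35 to 1.55), and 93.2% of tested genes had a lower log2(FPKM + 1) difference.

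PKLR (ENSG00000143627, chromosome 1, 155289293 to 155301438, minus strand) encodes the pyruvate kinase of liver and red cells, made from separate starts. Its level was 14.0 FPKM with control siRNA and 17.7 FPKM with SPRTN siRNA, from 2743 and 2411 reads. The SPRTN siRNA library was 1.26-fold higher (1.20 to 1.34), and 86.0% of tested genes had a lower log2(FPKM + 1) difference. HCN3 on the other strand, at 4.56 and 5.72 FPKM, shares 556 of the 3168 exonic bases of PKLR.

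An siRNA can lower transcripts whose 3' UTR pairs with positions 2 to 8 of its guide strand, as a microRNA does, so the 3' UTRs of the 8 genes were searched for that match. It is shown here because 1 gene held it and differed in the direction opposite to most genes with it. Capitals mark the seed in the guide and the 7 bases that pair with it in the siRNA sense strand and in PKLR.
SPRTN siRNA sense strand: gucaggaaguuCUGGUUAa
SPRTN siRNA guide strand: uUAACCAGaacuuccugac
PKLR 3' UTR site: cccagtttggCTGGTTAattccataac
The PKLR site begins 326 bases after the stop codon in both annotated 3' UTRs, and with the next base it is the 8-base site CTGGTTAA. The other 7 genes held no 7-base site in any protein-coding transcript. Over all tested genes with a 3' UTR, 10.5% held the 7-base site, with a median log2(FPKM + 1) difference of -0.23 against -0.05 without it. Of the 384 genes with the 8-base site, 16.7% were above 0, and 17 (4.43%) were at least as high as PKLR, which was at 0.32. Among tested genes of the lists further below, LDHA, PPP1R3D, PDK1, FOXO3, IRS1 and PPARGC1B hold the 7-base site. Their log2(FPKM + 1) differences ran from -0.76 (LDHA) to -0.06 (PPP1R3D). Genes without the site were also mostly below 0 in these lists. Their medians were -0.15 in the list of LDHA, -0.16 in that of PPP1R3D, -0.19 in that of PDK1 and -0.17 in that of FOXO3, IRS1 and PPARGC1B. The part of the site in any of these values was not tested.

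Promoter windows of 300 bases, from 250 before to 50 after the start, were found for 6 of the 8 genes in the RefSeq table (build GRCh38.p14), PCK1 and GYS2 being the others. Those of GCKR, the downstream start of PKLR and PCK2 are shown because the first pair was higher and the third lower with SPRTN siRNA. Capitals mark every match, on either strand, to the GC box GGGCGG, the CCAAT box, the HNF1 core motif GTTAAT, the cAMP response element core TGACG, the E box CACGTG, the ATF4 composite site TGATGNAA and the TATA box TATAAA. No match overlapped another motif's match in the windows shown.
GCKR, chr2:27496589-27496888, plus strand: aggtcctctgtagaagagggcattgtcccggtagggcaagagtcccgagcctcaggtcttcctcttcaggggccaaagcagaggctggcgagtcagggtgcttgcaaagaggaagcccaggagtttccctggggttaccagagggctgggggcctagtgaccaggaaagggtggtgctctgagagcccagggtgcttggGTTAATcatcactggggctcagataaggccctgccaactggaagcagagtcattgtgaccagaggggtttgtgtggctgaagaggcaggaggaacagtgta
PKLR, chr1:155300903-155301202, minus strand: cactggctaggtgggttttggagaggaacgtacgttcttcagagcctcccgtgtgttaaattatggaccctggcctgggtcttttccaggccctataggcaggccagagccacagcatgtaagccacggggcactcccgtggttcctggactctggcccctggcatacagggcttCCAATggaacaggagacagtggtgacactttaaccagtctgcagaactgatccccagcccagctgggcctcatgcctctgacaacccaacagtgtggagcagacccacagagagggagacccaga
PCK2, chr14:24094061-24094360, plus strand: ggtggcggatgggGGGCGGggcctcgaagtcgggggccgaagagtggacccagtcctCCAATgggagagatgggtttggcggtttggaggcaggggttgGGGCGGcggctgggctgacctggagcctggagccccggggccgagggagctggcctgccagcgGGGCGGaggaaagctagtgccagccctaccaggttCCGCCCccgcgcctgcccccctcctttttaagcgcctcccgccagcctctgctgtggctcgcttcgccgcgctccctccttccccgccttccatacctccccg
GCKR held an HNF1 core motif starting at position -51, a motif found in 6.88% of all 35116 windows, and no GC box. The middle one of 3 PC starts held that motif too, at position 28, and PC was 1.07-fold lower. PKLR held a CCAAT box at -75, found in 34.6% of windows, and no GC box at either of its starts. PCK2 held 4 GC boxes and 1 CCAAT box. GC boxes were in 45.0% of all windows, and the windows of FBP1 (4), PYGL (3) and the upstream and downstream starts of PC (2 each) held them too. Of these genes, PYGL had a ratio of 1.04, and PC was lower with SPRTN siRNA. FBP1 had a ratio of 1.54 with an interval that includes equality (0.693 to 3.44). The upstream PC window also held 3 cAMP response element cores, a motif found in 24.6% of windows. The ATF4 composite site and the TATA box were found in 3.62% and 11.5% of windows, the E box in 7.26% including the upstream PKLR start, and none of the 3 in the windows shown. Over tested genes matched by symbol, the median log2(FPKM + 1) difference was -0.03 for 2008 genes with no GC box and -0.08 for 6879 genes with one. A match is a description of letters and does not show binding.

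Several of these genes have a relative that does the same reaction, in other tissues or, for PCK1 and PCK2, in another cell compartment. By FPKM, which rests on the transcript length taken for each gene, the relative was often the more abundant in HepG2. PCK2 exceeded PCK1 223-fold in FPKM in the control and 85.2-fold with SPRTN siRNA, so PCK1 made up 0.446% and then 1.16% of the pair. PKM, the pyruvate kinase of most dividing cells, was at 828 and 713 FPKM (1.16-fold lower, 1.15 to 1.17). It exceeded PKLR 59.2-fold in the control and 40.4-fold with SPRTN siRNA, and PKLR made up 1.66% and 2.41% of the pair's FPKM.

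GYS1, the glycogen synthase of muscle and most other tissues, was at 38.0 and 36.5 FPKM, and its counting interval included equality (ratio 0.962, 0.920 to 1.00). With GYS2 near silence, GYS1 gave almost all glycogen synthase mRNA in both libraries. PYGB, the brain type phosphorylase, was at 118 and 113 FPKM (1.05-fold lower, 1.03 to 1.07), and PYGL was 37.4% and 39.5% of that pair. The muscle type PYGM was at 0.0296 and 0.136 FPKM, from 5 and 16 reads. FBP2, the muscle fructose-bisphosphatase, was at 0.199 and 0.0571 FPKM, from 25 and 5 reads, so both bisphosphatase genes were under 1 FPKM.

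**Figure D3:**
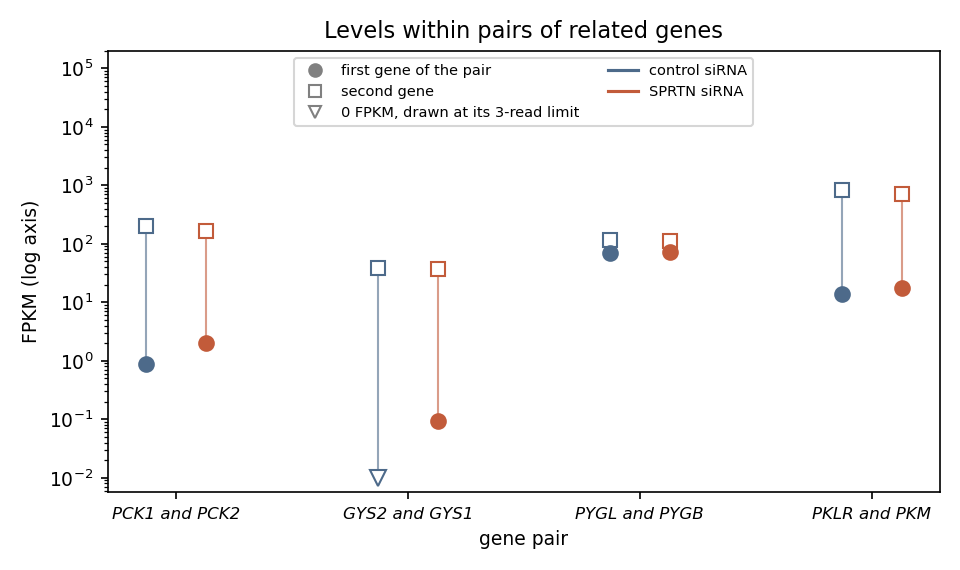
FPKM (log axis) of 4 gene pairs in the control siRNA library (blue) and the SPRTN siRNA library (orange), with a filled circle for the first gene and an open square for the second. PCK2, GYS1 and PKM exceed their relatives at least 40.4-fold in both libraries, and PYGL and PYGB lie close together; GYS2 in the control is 0 and drawn at the level of 3 reads.

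The ratios of the scarce genes have to be read against other genes of like level, since low genes were more often higher with SPRTN siRNA. Because the libraries differ in depth, equal read counts in both give a plain ratio of 1.44. That was also the median ratio from 0.02 to 0.1 FPKM. The part of unequal depth in the shares that follow was not tested. Among 3543 genes with a mean of 1 to 5 FPKM, the range of PCK1, 8.30% were higher and 3.84% lower by 2-fold or more on the plain ratio. In the range of FBP1, 0.1 to 0.5 FPKM, these shares were 32.3% and 16.9%. In that of GYS2, 0.02 to 0.1 FPKM, they were 44.1% and 28.8%. From 5 to 50 FPKM, where GCKR and PKLR lie, they were 1.21% and 1.44%. The control, although 1.44 times deeper, had 26565 genes above 0 against 27505 with SPRTN siRNA. Of genes with recovered reads, 3441 were at 0 in the control only and 2499 at 0 with SPRTN siRNA only. GYS2 was 1 of 26 genes, 15 of them protein-coding, with 0 reads in the control and at least 20 with SPRTN siRNA. The reverse was seen for 0 genes. The limit of 20 reads is the count of GYS2 itself, so its place among the 26 was fixed beforehand.

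**Figure D4:**
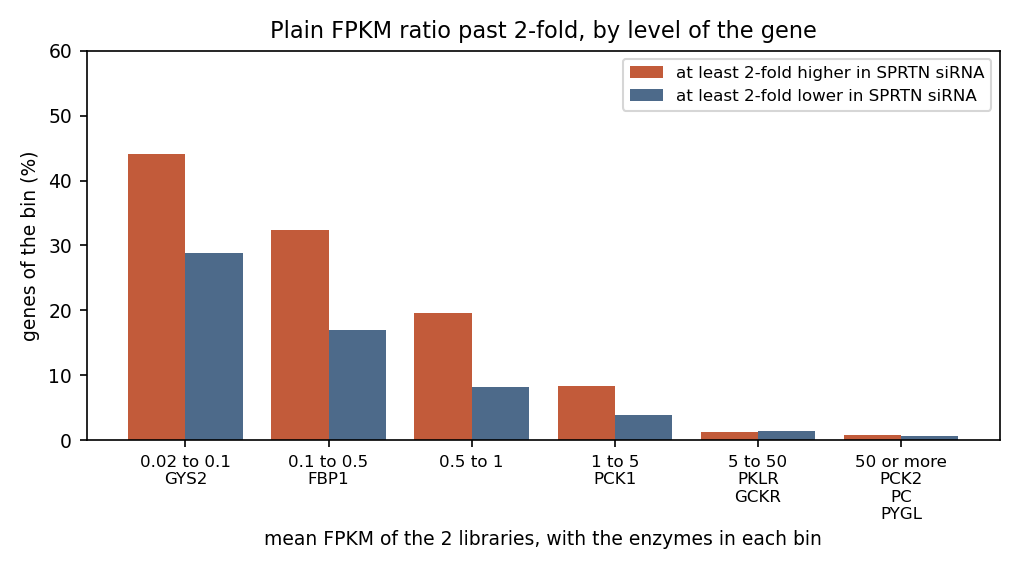
Percent of genes at least 2-fold higher or lower with SPRTN siRNA by the plain FPKM ratio, in 6 bins of mean FPKM from 0.02 upwards; the enzymes of each bin are named under it. The share higher exceeds the share lower in the 4 bins below 5 FPKM, where PCK1, FBP1 and GYS2 lie.

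In the lists that follow, counts are read against all 13203 genes, of which 2.29% were past 2-fold and 43.4% above 0, and lowest and highest refer to the log2(FPKM + 1) difference. Of 26 genes for the remaining steps of gluconeogenesis 22 passed the minimum, 0 were past 2-fold, 7 were above 0 and 15 below, and the median log2(FPKM + 1) difference was -0.16 beside -0.05 for all genes. The lowest were LDHA, which interconverts lactate and pyruvate, at 1379 and 812 FPKM (1.70-fold lower), and SLC37A4, at 22.2 and 16.7 FPKM (1.33-fold lower). SLC37A4 carries glucose-6-phosphate into the endoplasmic reticulum. The highest were GPD1, which links glycerol to the path, at 21.8 and 32.9 FPKM (1.51-fold higher), and MPC1, a subunit of the mitochondrial pyruvate carrier, at 64.3 and 94.3 FPKM (1.47-fold higher). G6PC, the glucose-6-phosphatase of liver, was looked up after its values were seen and was at 8.28 and 6.46 FPKM, 1.28-fold lower, opposite to PCK1.

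Other glycogen genes had a similar spread. Of 26 listed 20 passed the minimum, 0 were past 2-fold, 6 were above 0 and 14 below, with a median of -0.12. UGP2, which makes the UDP-glucose that glycogen synthase uses, was at 99.4 and 69.9 FPKM (1.42-fold lower). GYG2, a liver glycogenin that primes glycogen, was at 22.4 and 16.0 FPKM (1.40-fold lower). GSK3A, a kinase that inhibits glycogen synthase, was at 20.7 and 28.1 FPKM (1.36-fold higher), and PHKG2, the liver catalytic subunit of phosphorylase kinase, at 23.7 and 26.6 FPKM (1.12-fold higher).

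The list of glycolytic steps opposing gluconeogenesis also holds genes of pyruvate dehydrogenase, its kinases and its phosphatases, which are not glycolytic steps. In this list, too, 0 genes were past 2-fold. Of 24 listed 21 passed, 8 above 0 and 13 below, with a median of -0.20. The phosphofructokinase genes PFKP (15.1 and 10.1 FPKM, a ratio of 0.667) and PFKL (85.2 and 64.7 FPKM, 1.32-fold lower) were lowest on the log2(FPKM + 1) scale. The third gene of that enzyme, PFKM, picked out after its values were seen, was at 1.53 and 2.32 FPKM, a ratio of 1.51 (1.25 to 1.83). PFKFB2, which makes and removes the signal fructose-2,6-bisphosphate, was highest on the log2(FPKM + 1) scale at 15.4 and 21.9 FPKM (1.42-fold higher), though below PFKM on the plain ratio, followed on that log2 scale by the pyruvate dehydrogenase kinase gene PDK2 at 11.6 and 16.0 FPKM (1.39-fold higher).

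Among regulators of these enzymes, 30 of 33 passed, and 1 was past 2-fold, a share close to the 2.29% of all genes. It was CREB3L3, a liver transcription factor cleaved at the endoplasmic reticulum and Golgi, at 7.25 and 16.2 FPKM (2.24-fold higher, 2.07 to 2.42). CRTC2, a coactivator of CREB at gluconeogenic genes, was next at 13.8 and 21.2 FPKM (1.54-fold higher). At the other end were CEBPB, at 46.0 and 23.1 FPKM (1.99-fold lower), and the glucocorticoid receptor gene NR3C1, at 12.3 and 7.82 FPKM (1.57-fold lower), both known activators of PCK1. NR3C1 was next lowest after CEBPB on the log2(FPKM + 1) scale. On the plain ratio FOXO1, another activator, picked out after its values were seen, was marginally lower, at 8.45 and 5.35 FPKM (1.58-fold lower). Of the 30, 9 were above 0 and 21 below, with a median of -0.17.

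**Figure D5:**
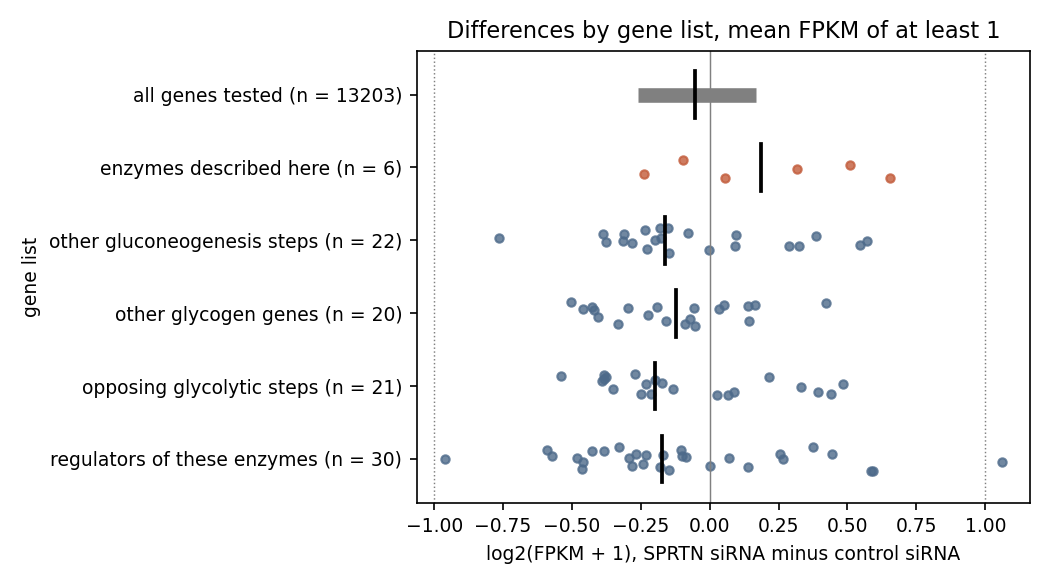
Difference in log2(FPKM + 1), SPRTN siRNA minus control siRNA, for each gene with a mean of at least 1 FPKM; black bars are medians, the grey bar runs from the lower to the upper quartile of all genes, and dotted lines mark 2-fold. The medians of the 4 lists lie between -0.20 and -0.12, that of the 6 enzymes at 0.19, and CREB3L3 is the 1 point past 2-fold.

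The authors' deposited table calls 2 of the 8 genes, PCK1 and GYS2, both higher with SPRTN siRNA. Of 25035 genes with an adjusted p in the authors' deposited table, 12.5% are called, 9.2% as higher, and with 8 genes a count of 2 is not read as particular to them. For PCK1 the log2 fold change in the authors' deposited table is 1.15 (adjusted p = 9.59e-17), and for GYS2 the authors' deposited table lists an adjusted p of 2.86e-07. PCK2, at a log2 fold change of -0.24 in the authors' deposited table, has a still smaller adjusted p of 1.56e-65 and no call. These p-values set 1 library against 1 library by a method that no source names, so they leave out variation from culture to culture.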

How the data were processed

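The authors deposited FPKM values per gene for both libraries, and a second table with length-scaled coverage (a signal that equals the FPKM with SPRTN siRNA and 1.44 times the FPKM in the control). That deposited table also holds the authors' log2 fold change, p-value and adjusted p-value. The FPKM table is titled as row means, without saying of what. Per the submitters' processing notes, the authors used the build GRCh38.p13 and edgeR, whose role is not stated. Aligner, counter and annotation were not given in the sources used here. Of the value columns, that with the siRNA prefix was taken as the SPRTN siRNA library and the other as the control.

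Genes with a mean of at least 1 FPKM (13203) were compared as log2(FPKM + 1), which understates the change of low genes, and counted by a 2-fold size rule; folds beside FPKM are plain ratios. Reads were recovered as FPKM times the mean transcript length in GENCODE release 29. Among genes with 1 transcript, 98.4% (SPRTN siRNA) and 98.6% (control) of values up to 20 reads lay within 0.05 of a whole number. Of the 8 genes only GYS2 has 1 transcript, so this check does not cover the others. FBP1 was recovered as 13.6 reads (control) and 14.6 reads (SPRTN siRNA) before rounding. Counting intervals (95%, exact Clopper-Pearson) are for the reads' split between libraries, computed with scipy 1.17.1, and cover counting error only. Depth recovery and the size rule were tested on simulated data. The 8 genes, the lists and the motifs were chosen with earlier results of these data known. The text names the 8 genes, SPRTN, relatives of the 8 genes, list members past 2-fold, and the highest pair and lowest pair of each list; other genes are marked. Some genes of the lists are not reported here.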

Additional observations from a re-analysis of the deposited data

How the results depend on the processing

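The direction of PCK1, PCK2, PC, GCKR, PYGL and PKLR was the same under each alternative that gave a value. The 2-fold line decided PCK1: 1 of the 6 genes was past it with a pseudocount of 0.1 (log2 difference 1.06), and 1 by the plain ratio, an alternative added after seeing the data, against 0 with a pseudocount of 1. Over all genes, a pseudocount of 0.1 gave 368 higher and 230 lower, a pseudocount of 0.5 gave 162 lower, the plain ratio gave 398 and 254 among genes above 0 in both libraries (400 and 255 with genes at 0 in 1 library), and a minimum of 5 FPKM gave 86 higher. That minimum removes PCK1, and the median of the remaining enzymes was 0.057. Centring on the median gene shifted all differences by 0.05 on the log2 scale, with 221 genes higher and 77 lower, and moved PCK2 to -0.19, PC to -0.04 and PYGL to 0.11. Of 91 comparisons of a count or median with an alternative, 82 stayed within the limits used. No paired analysis was possible because each group has 1 library, and for the same reason no library could be left out. Depth limits FBP1 and GYS2, which rest on at most 20 reads per library.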

Other observations

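Further genes of the pathway lists, looked up after their values were seen, were also nearly silent in these HepG2 libraries. The glucagon receptor gene GCGR had 0 reads in the control and 10 with SPRTN siRNA. LDHB, the heart type lactate dehydrogenase subunit, had 0 and 3 reads, so LDHA gave almost all lactate dehydrogenase mRNA of the pair. GPD2, the mitochondrial glycerol-3-phosphate dehydrogenase, had 1 and 0 reads. No test across libraries was possible for any of them.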
